A study of Mus musculus with 12 samples.

Results

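The glycolysis and hypoxia genes are a list of 36 mouse genes that holds glucose transporters, glycolytic enzymes, lactate transporters, the kinases that regulate glycolysis and pyruvate use, and genes induced in low oxygen. Each gene was read from 1 probe set, the one whose mean across all 12 arrays was highest. A probe set annotated to that gene alone was found for 33 of the 36 genes, and the remaining 3 (Gpi1, Pgam1 and Eno1) were not analysed here. Of the 33 genes, 31 were tested among 11073 genes in all. Aldoc and Ankrd37 were below the filter, which asked for 2 or more arrays with a log2 signal above 5.10 (the median signal).

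The study sorted fibroblasts from digested lungs of mice whose Pdgfra gene is reported by GFP, and kept a GFP bright and a GFP dim gate of 2000 cells each. Lungs were taken 5 days after surgery. Bright and dim cells each came from mice that had a partial pneumonectomy and carry a dominant-negative form of FGF receptor 2 (PNX-dnFGFR), from mice that had a pneumonectomy (PNX) and from mice that had a sham operation (SHAM). Each of the 6 groups had 2 arrays. The labels were the source for the groups. The promoter and cell type that drive the dominant-negative receptor, the genotype of the PNX and SHAM mice beyond the reporter, the age of the mice, and whether a replicate is 1 animal or a pool are not stated in them. They call the replicates biological, and p-values measure only the spread between these arrays. A bright and a dim array may share mice, which the fit did not take into account.

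The array medians were 5.06 to 5.13 log2, and Pearson's r across genes, which are not independent replicates, was 0.953 to 0.976 within groups and 0.787 to 0.893 across the subsets. The transcript of Pdgfra, whose reporter defined the gates, went against the gate names: it was 4.84 to 5.54 log2 on the arrays labelled bright and 6.66 to 7.13 log2 on those labelled dim. The difference was -1.75 ± 0.10 log2 (SE, 6 arrays per subset, adjusted p = 9.92e-07, limma), so bright and dim name the labels only. Of 12 fibroblast markers 6 were higher and 2 lower in bright cells, with summed linear signals of 35825 to 38937 on bright and 28800 to 33271 on dim arrays. Sparc and Col3a1 were at 11.89 log2 or more on every array, Dcn was at 11.97 to 12.21 log2 on bright and 5.72 to 8.48 log2 on dim arrays, and Lum was at 8.21 to 8.93 log2 on bright arrays and below the filter on every dim array (2.34 to 3.06 log2). The surfactant gene Sftpc, an alveolar epithelial marker, was at 11.36 to 12.06 log2 on bright arrays and 11.58 to 12.43 log2 on dim arrays. In these sorted pools, fewer cells of a type and less RNA per cell cannot be told apart.

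Glycolysis splits glucose into pyruvate, and pyruvate is either reduced to lactate, which leaves the cell through monocarboxylate transporters, or oxidised in mitochondria, a step that pyruvate dehydrogenase kinases inhibit. When oxygen is low, the prolyl hydroxylases stop marking hypoxia-inducible factor (HIF) for degradation, and the factor binds short DNA elements near genes for glycolytic enzymes, glucose uptake and vessel growth. Fibroblasts that turn into myofibroblasts or proliferate are known to use glycolysis heavily. Several steps exist as isozymes with different control, so which isozyme is expressed matters as well as how much.

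The core of the element that HIF binds reads ACGTG or GCGTG. Promoters of 4 members are shown as examples of either direction in the comparison of bright with dim cells: Egln3, Eno2 and Pfkp were higher in bright cells and Pfkfb3 lower. The sequences are from RefSeq, build GRCm38.p6, and run 5′ to 3′ over 300 bases around a transcription start, most of them upstream. All 4 genes lie on the minus strand. Egln3 is at chr12:54203825-54204124, Eno2 at chr6:124769624-124769923, Pfkp at chr13:6648722-6649021, the first Pfkfb3 promoter at chr2:11553880-11554179 and the second at chr2:11502041-11502340. Capitals mark every match to either core on either strand.
Egln3: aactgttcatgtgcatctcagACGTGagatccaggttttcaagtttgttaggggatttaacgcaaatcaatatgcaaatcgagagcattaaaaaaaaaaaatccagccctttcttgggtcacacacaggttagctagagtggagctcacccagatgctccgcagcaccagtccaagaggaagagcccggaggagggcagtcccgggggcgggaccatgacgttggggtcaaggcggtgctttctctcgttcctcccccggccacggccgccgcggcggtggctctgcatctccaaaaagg
Eno2: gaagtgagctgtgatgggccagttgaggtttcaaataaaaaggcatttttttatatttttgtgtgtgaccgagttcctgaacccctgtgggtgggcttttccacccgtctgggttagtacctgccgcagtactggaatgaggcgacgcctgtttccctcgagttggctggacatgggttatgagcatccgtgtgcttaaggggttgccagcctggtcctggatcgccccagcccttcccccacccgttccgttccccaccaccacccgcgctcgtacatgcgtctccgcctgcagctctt
Pfkp: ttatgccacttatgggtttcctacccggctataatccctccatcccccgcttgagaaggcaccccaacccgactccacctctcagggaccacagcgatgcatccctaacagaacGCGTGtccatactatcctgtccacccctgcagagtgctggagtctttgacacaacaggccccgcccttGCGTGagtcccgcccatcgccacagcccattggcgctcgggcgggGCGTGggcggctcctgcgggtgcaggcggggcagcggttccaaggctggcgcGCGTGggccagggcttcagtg
Pfkfb3 promoter 1: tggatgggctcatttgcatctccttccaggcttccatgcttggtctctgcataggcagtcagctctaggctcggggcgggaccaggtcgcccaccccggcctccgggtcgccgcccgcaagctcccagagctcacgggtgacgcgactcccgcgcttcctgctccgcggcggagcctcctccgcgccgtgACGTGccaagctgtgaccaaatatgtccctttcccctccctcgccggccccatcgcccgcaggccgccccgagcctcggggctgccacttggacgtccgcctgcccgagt
Pfkfb3 promoter 2: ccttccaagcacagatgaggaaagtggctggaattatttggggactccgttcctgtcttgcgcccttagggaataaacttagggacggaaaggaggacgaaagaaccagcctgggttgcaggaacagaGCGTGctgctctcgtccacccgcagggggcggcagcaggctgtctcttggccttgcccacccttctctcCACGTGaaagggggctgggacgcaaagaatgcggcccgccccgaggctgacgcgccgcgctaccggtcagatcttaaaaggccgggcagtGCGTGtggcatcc

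The Egln3 window held 1 ACGTG, 229 bases before the start. The Pfkp window held 4 GCGTG, and the Eno2 window held neither core. The first Pfkfb3 window held 1 ACGTG and the second held 2 GCGTG and a CACGTG, which reads ACGTG on both strands. Of the 31 tested members, 29 had a promoter in the table, with 43 promoters between them. ACGTG was in 25 of these promoters (58.1%), against 19.6% of all 32851 promoters of this length, and GCGTG was in 22 (51.2%), against 32.4%. Either core was in at least 1 promoter of 27 of the 29 members (93.1%), against 46.7% of 27025 genes. The shares of all promoters and genes include genes not tested here. The list was itself drawn up to hold genes induced in low oxygen, and genes with several promoters had more windows to match. Pfkp, higher in bright cells, and Pfkfb3, lower in them, both carried the cores. A match is a description of letters in this window and was not tied to binding.

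Bright cells had more RNA for a pair of isozymes, neuron-type enolase and lactate dehydrogenase B, for the platelet-type phosphofructokinase and for triosephosphate isomerase, and less for the phosphofructokinase activator Pfkfb3 and for the secreted factors Vegfa and Adm. Averaged over the 3 conditions, 14 of the 31 tested members were higher and 6 lower in bright than in dim cells at an adjusted p below 0.05 (limma). Among all genes tested, 47.8% passed this test, 28.5% higher and 19.3% lower. The median difference was 0.32 log2 over the members and 0.05 log2 over all genes. On the arrays themselves, 7 members were higher on every bright than on every dim array and 3 were lower, and 23.5% of all genes were separated in this way. Hk2, Eno2 and Egln3 had passed the filter through bright arrays alone, so their place among the higher members follows in part from the filter.

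**Figure D1:**
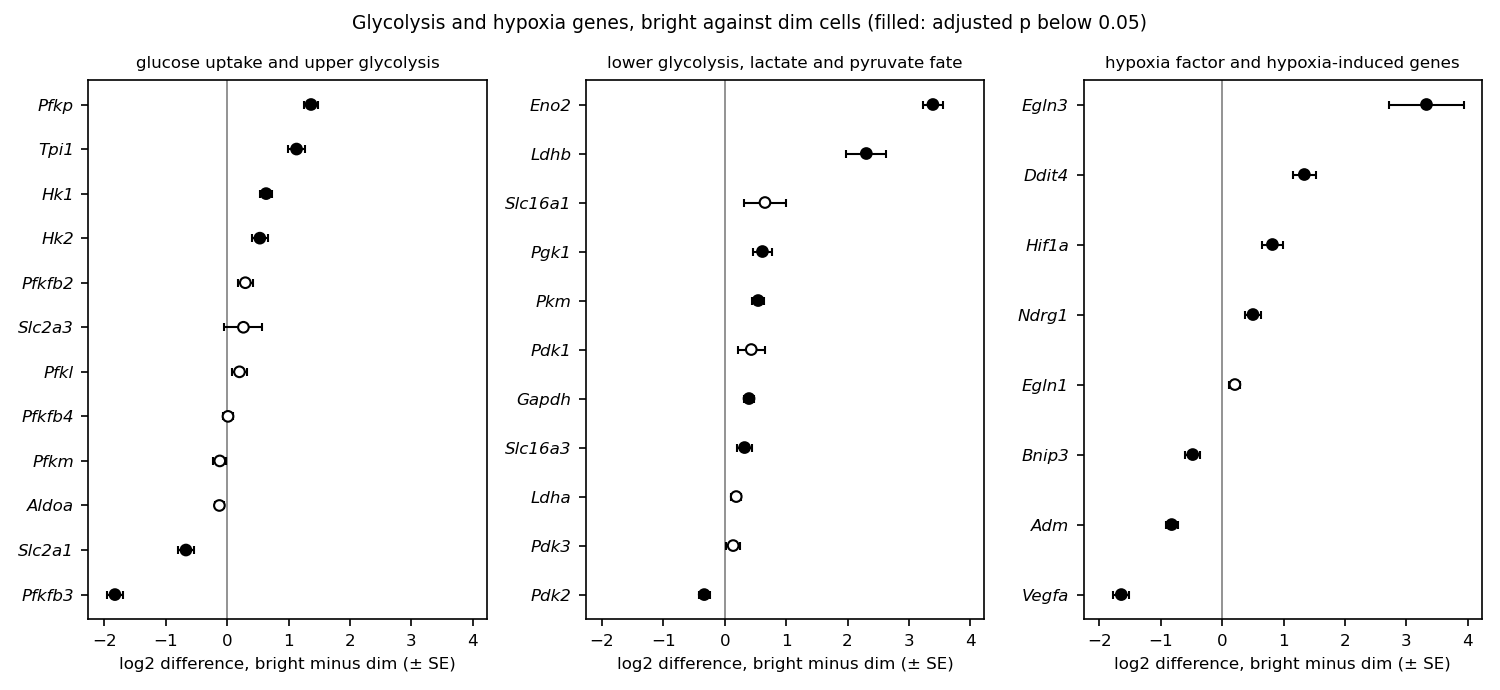
Log2 difference between bright and dim cells (bright minus dim, mean over the 3 conditions, x axis) for the 31 tested members, in 3 panels by role. Points are limma estimates with the standard error as bars, and filled points had an adjusted p below 0.05. Eno2 and Egln3 lie furthest to the right, and Pfkfb3 and Vegfa furthest to the left.

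Among the 12 tested genes of glucose uptake and upper glycolysis, 4 were higher in bright cells, 2 were lower and 6 did not pass. Their median difference was 0.23 log2, and 28.5% of all genes were higher and 19.3% lower. Pfkp, the platelet-type subunit of phosphofructokinase, the enzyme that commits sugar to glycolysis, had a lowest, median and highest signal of 9.44, 9.53 and 9.76 log2 on bright arrays, against 7.89, 8.01 and 9.03 log2 on dim arrays. Every bright array was above every dim array. Pfkp was 2.58-fold higher in bright cells (1.37 ± 0.12 log2, SE, n = 6 per subset, adjusted p = 1.51e-05, limma). A second Pfkp probe set gave 0.90 log2. The other subunits, Pfkl and Pfkm, were at 8.31 to 9.58 and 8.19 to 8.63 log2 on bright arrays and at 8.30 to 8.68 and 8.26 to 8.66 log2 on dim arrays, and neither passed.

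Pfkfb3 makes and breaks down fructose 2,6-bisphosphate, the strongest activator of phosphofructokinase, with the balance on the side of synthesis. It read 7.28, 7.81 and 8.10 log2 (lowest, median, highest) on bright arrays, against 9.24, 9.63 and 9.77 log2 on dim arrays. The subsets did not overlap, and Pfkfb3 was 3.55-fold lower in bright cells (-1.83 ± 0.14 log2, SE, n = 6 per subset, adjusted p = 6.21e-06, limma). Its second probe set gave -1.73 log2. Relatives of the same bifunctional family were Pfkfb2, at 0.30 log2 (adjusted p = 0.0627, limma), and Pfkfb4, at 0.01 log2, and neither passed.

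Tpi1, which interconverts the 2 triose phosphates, read 8.03, 8.62 and 9.28 log2 on bright arrays, against 7.13, 7.53 and 7.58 log2 on dim arrays. It was higher on all bright arrays, by 1.13 ± 0.14 log2 (SE, n = 6 per subset, adjusted p = 0.000175, limma), and a second probe set gave 1.04 log2. Its probe set is of a type that can also bind related transcripts. Hexokinase 1, the constitutive enzyme that traps glucose in the cell, read 8.90, 8.97 and 9.16 log2 on bright arrays, against 8.09, 8.30 and 8.75 log2 on dim arrays. The subsets did not overlap, and Hk1 was higher by 0.63 ± 0.10 log2 (SE, n = 6 per subset, adjusted p = 0.000507, limma).

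Slc2a1, the widespread glucose transporter GLUT1, read 6.73, 7.03 and 7.32 log2 on bright arrays, against 7.29, 7.72 and 8.01 log2 on dim arrays. Only the highest bright array reached into the dim range, and Slc2a1 was lower in bright cells (-0.67 ± 0.13 log2, SE, n = 6 per subset, adjusted p = 0.00207, limma), with -0.55 log2 from a second probe set. Hk2, the inducible hexokinase, was at 4.30 to 5.98 log2 on bright arrays and, below the filter throughout, at 4.42 to 5.05 log2 on dim arrays. Its difference of 0.53 log2 (adjusted p = 0.0097, limma) was 0.25 log2 when values below the filter were held at it. Slc2a3, the high-affinity transporter GLUT3, and Aldoa, the main aldolase, differed by 0.27 and -0.13 log2 and did not pass. The other Slc2a3 probe sets gave 0.63, 1.07 and 0.98 log2, and Slc2a3 passed as higher in bright cells with the mean of its probe sets.

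Of 11 tested genes of lower glycolysis and lactate and pyruvate use, 6 were higher in bright cells, 1 was lower and 4 did not pass. Their median was 0.43 log2, beside the same shares of all genes (28.5% higher and 19.3% lower). Eno2, the enolase named for neurons, was the widest apart: 6.31, 6.99 and 7.66 log2 on bright arrays, against 3.20, 3.64 and 3.89 log2 on dim arrays, all of them below the filter. No array of one subset came near the other. The difference was 3.39 ± 0.16 log2 (SE, n = 6 per subset, adjusted p = 5.22e-07, limma), and 1.89 log2 with the dim values held at the filter. The sole probe set annotated to an enolase 1 gene carries the name Eno1b, and was chosen after its values were seen: it gave 0.49 ± 0.13 log2 (SE, n = 6 per subset, adjusted p = 0.0108, limma).

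Ldhb, the lactate dehydrogenase subunit that favours turning lactate into pyruvate, read 8.95, 9.85 and 10.58 log2 on bright arrays, against 6.67, 7.49 and 8.52 log2 on dim arrays. The subsets did not overlap, and Ldhb was 4.95-fold higher in bright cells (2.31 ± 0.33 log2, SE, n = 6 per subset, adjusted p = 0.000347, limma), with 2.50 log2 from a second probe set. Ldha, the subunit that favours making lactate and a textbook HIF target, read 10.66, 10.85 and 11.24 log2 on bright arrays, against 10.47, 10.73 and 10.92 log2 on dim arrays. These ranges overlapped, and the 0.19 ± 0.08 log2 (SE, n = 6 per subset, adjusted p = 0.0963, limma) of Ldha did not pass. With a variance trend, Ldha did pass (adjusted p = 0.0369, limma).

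The remaining glycolytic steps differed less between the subsets. Pkm, pyruvate kinase, which forms pyruvate and ATP, read 10.16, 10.36 and 11.09 log2 on bright arrays, against 9.79, 9.88 and 10.16 log2 on dim arrays, and was higher by 0.54 ± 0.10 log2 (SE, n = 6 per subset, adjusted p = 0.00179, limma). Gapdh, the triose dehydrogenase often used as a loading control, read 11.70, 11.85 and 12.09 log2 on bright arrays, against 11.19, 11.45 and 11.68 log2 on dim arrays. The subsets did not overlap for Pkm or Gapdh, though those of Pkm nearly met at 10.16 log2. Gapdh was higher by 0.40 ± 0.09 log2 (SE, n = 6 per subset, adjusted p = 0.00465, limma).

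The array's own control probe sets for the 3′ end of Gapdh were at 11.30 to 11.75 log2 on bright and 10.73 to 11.35 log2 on dim arrays. These ranges overlapped, as did those of the controls for the middle and the 5′ end of Gapdh. Signal at the 3′ end minus the 5′ end, a measure of RNA integrity, was 0.04 to 0.30 log2 on bright and -0.02 to 0.21 log2 on dim arrays for Gapdh, and for Actb it was -0.42 to -0.10 and -0.39 to -0.18 log2. The ranges of the subsets overlapped, and the part of RNA integrity in the results was not tested.

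Pgk1, which makes the first ATP of glycolysis, was higher by 0.62 log2 (adjusted p = 0.00852, limma), and Slc16a3, the lactate exporter MCT4, by 0.32 log2 (adjusted p = 0.0433, limma), a call that did not hold under 4 alternative settings (under 1 of them, the stricter filter, it was no longer tested) or in 10 of 12 fits with 1 array left out. Pdk2, a kinase that inhibits pyruvate dehydrogenase, was lower in bright cells by -0.33 log2 (adjusted p = 0.012, limma), while Pdk1 and Pdk3, kinases of the same function, differed by 0.43 and 0.14 log2 and did not pass. Slc16a1, the lactate transporter MCT1, spread from 5.47 to 7.99 log2 on bright and from 4.51 to 6.62 log2 on dim arrays and did not pass.

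The hypoxia genes went both ways, as did all genes (28.5% higher and 19.3% lower). Of 8 tested, 4 were higher in bright cells, 3 were lower and Egln1 did not pass. Hif1a, the oxygen-regulated subunit of HIF-1, read 6.15, 6.79 and 7.51 log2 on bright arrays, against 5.48, 5.98 and 6.52 log2 on dim arrays. The ranges overlapped, and its signal in bright cells was higher by 0.82 ± 0.17 log2 (SE, n = 6 per subset, adjusted p = 0.00303, limma). A second Hif1a probe set, below the filter, gave 0.29 log2. HIF-1 activity is controlled mainly at the protein, which arrays do not measure.

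Egln3, a prolyl hydroxylase that is itself induced by HIF, read 3.79, 6.97 and 8.81 log2 on bright arrays, against 2.57, 3.01 and 4.05 log2 on dim arrays, with every dim value below the filter. Of the 6 bright arrays, 4 were far above the dim range, 1 bright PNX array was at 4.16 log2 and 1 bright SHAM array at 3.79 log2. The difference was 3.33 ± 0.61 log2 (SE, n = 6 per subset, adjusted p = 0.00167, limma), 1.83 log2 with values held at the filter, and 2.13 log2 from a second probe set. Ddit4, an inhibitor of mTORC1 induced by hypoxia and by stress, read 4.90, 5.92 and 6.96 log2 on bright arrays, against 3.85, 4.49 and 5.17 log2 on dim arrays. The ranges met in the lowest bright arrays, and Ddit4 was higher by 1.34 ± 0.18 log2 (SE, n = 6 per subset, adjusted p = 0.000306, limma), or 0.77 log2 with values held at the filter. Ndrg1, a stress-responsive gene of the same class, was higher by 0.50 log2 (adjusted p = 0.00821, limma).

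The secreted products were lower in bright cells. Vegfa, the main growth factor for blood vessels, read 8.40, 8.84 and 9.40 log2 on bright arrays, against 10.28, 10.54 and 10.84 log2 on dim arrays. No array overlapped, and Vegfa was 3.13-fold lower (-1.64 ± 0.13 log2, SE, n = 6 per subset, adjusted p = 8.49e-06, limma), with -1.37 log2 from a second probe set. Adm, which encodes the vasodilator peptide adrenomedullin, read 6.27, 6.85 and 7.31 log2 on bright arrays, against 7.41, 7.50 and 8.13 log2 on dim arrays. These did not overlap either, and Adm was lower by -0.82 ± 0.10 log2 (SE, n = 6 per subset, adjusted p = 0.000145, limma). Bnip3, which promotes removal of mitochondria, was lower by -0.48 log2 (adjusted p = 0.00966, limma). Egln1, the main oxygen-sensing hydroxylase, differed by 0.21 log2 (adjusted p = 0.0813, limma) and did not pass. A second Egln1 probe set gave 0.35 log2, and Egln1 passed as higher in bright cells with the mean of its probe sets.

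**Figure D2:**
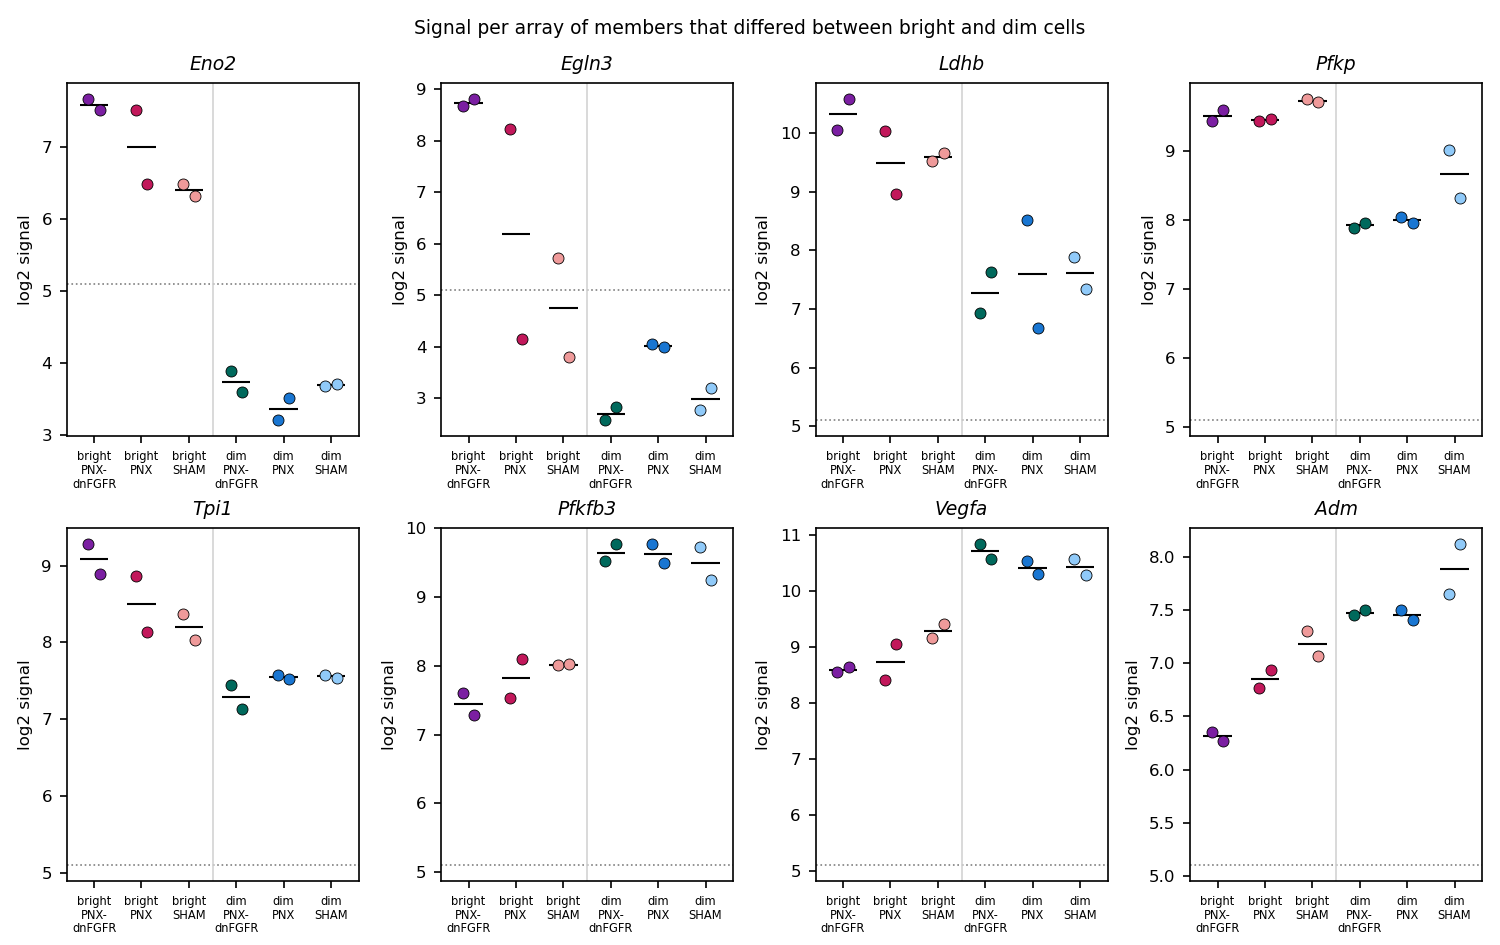
Log2 signal on each of the 12 arrays (y axis) for 8 members that differed between bright and dim cells, by subset and condition. Points are arrays, bars are group means and the dotted line is the filter at 5.10. Bright and dim arrays are apart for Eno2, Ldhb, Pfkp, Tpi1, Pfkfb3, Vegfa and Adm, and the bright PNX and SHAM arrays of Egln3 are spread widely.

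Markers of other cell types were measured on the same arrays. Of 7 tested mesothelial markers, 5 were higher in bright cells and none lower, with a median of 1.91 log2; their summed linear signal was 2126 to 4097 on bright and 366 to 806 on dim arrays, and Msln was below the filter on all arrays. Nkain4 and Krt19 differed by 2.71 log2 (adjusted p = 1.4e-05, limma) and 1.19 log2 (adjusted p = 0.0734, limma). Of 7 pericyte and smooth muscle markers 4 were higher and 1 lower, with sums of 1468 to 2361 on bright and 394 to 559 on dim arrays, Acta2 and Pdgfrb at 2.15 and 3.23 log2, and Rgs5 below the filter throughout.

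Markers of immune, vessel, epithelial and blood cells were read in the same way. Lymphocyte markers were lower for 4 of 7, with sums of 269 to 393 on bright and 386 to 768 on dim arrays and Cd3e and Ms4a1 below the filter throughout. Endothelial markers were higher for 1 and lower for 4 of 10, with sums of 1906 to 2409 on bright and 2063 to 2937 on dim arrays and Emcn below the filter throughout. Macrophage markers were lower for 2 of 13, with sums of 2623 to 3852 on bright and 2813 to 6765 on dim arrays. Of 11 epithelial markers none passed, with sums of 4597 to 10812 on bright and 5255 to 11931 on dim arrays and Cdh1 below the filter throughout. Neutrophil markers were higher for 1 of 5, with sums of 192 to 771 on bright and 128 to 1517 on dim arrays and Cxcr2 below the filter throughout. Neither of 2 tested erythrocyte markers passed, with sums of 123 to 3366 on bright and 128 to 4269 on dim arrays and Slc4a1 and Epb42 below the filter throughout. Vegfa and Slc2a1 are also expressed by epithelial and endothelial cells, and the part of other cell types in the members' differences was not tested.

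Sorting and tissue digestion raise immediate early genes, of which 8 of 16 were higher and 2 lower in bright cells with a median of 0.62 log2. Of 18 cell cycle genes 14 were higher and none lower, with a median of 1.18 log2. Their part in the members' differences was not tested.

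Whether the same members separated the subsets after each operation was read from the 3 conditions apart. In PNX-dnFGFR mice 14 members were higher and 4 lower in bright cells, where 34.4% of all genes passed (21.0% higher and 13.5% lower). In PNX mice 4 were higher and 4 lower, where 18.4% of all genes passed (11.4% higher and 7.07% lower). In SHAM mice 5 were higher and 5 lower, where 19.0% of all genes passed (11.5% higher and 7.53% lower). The members' median difference was 0.72 log2 in PNX-dnFGFR, 0.33 log2 in PNX and 0.11 log2 in SHAM mice, against 0.06, 0.04 and 0.04 log2 over all genes.

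Pfkp, Eno2 and Ldhb were higher and Pfkfb3, Vegfa and Adm lower in bright cells in each of the 3 conditions. In PNX mice the calls of Ldhb and Adm did not hold with only the groups compared or in most fits with 1 array left out. The Ldhb call in SHAM mice was also lost in several fits with 1 array left out. In SHAM mice Pfkp and Adm missed the threshold with only the groups compared. Vegfa missed it there without bright SHAM replicate 1, and Adm without bright or dim SHAM replicate 2. Eno2, whose dim values were all below the filter, differed by 2.48 log2 in PNX-dnFGFR, 1.89 log2 in PNX and 1.29 log2 in SHAM mice with values held at the filter, and by 3.84, 3.63 and 2.70 log2 as measured. Ldhb differed by 3.04, 1.90 and 1.98 log2 in that order, and Pfkp by 1.59, 1.45 and 1.06 log2. Among the lower members, Pfkfb3 differed by -2.19, -1.81 and -1.47 log2, Vegfa by -2.11, -1.68 and -1.14 log2, and Adm by -1.16, -0.61 and -0.70 log2. Eno2, Pfkp, Pfkfb3 and Vegfa were thus widest apart in PNX-dnFGFR mice and nearest in SHAM mice, but none of these differences between conditions passed its own test.

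Another 10 members passed in PNX-dnFGFR mice alone, the condition in which the largest share of all genes passed (34.4%). The share of all genes that passed in that condition alone was not counted. Egln3 was the widest of them, at 6.03 ± 1.06 log2 (SE, n = 2 arrays per group, adjusted p = 0.00224, limma), or 3.63 log2 with values held at the filter, against 2.17 ± 1.06 log2 (held, 1.56 log2) in PNX and 1.77 ± 1.06 log2 (held, 0.31 log2) in SHAM mice. Ddit4 differed by 2.30 log2 in PNX-dnFGFR, 0.87 log2 in PNX and 0.84 log2 in SHAM mice, or by 1.45, 0.83 and 0.01 log2 with values held at the filter. Pkm differed by 0.99, 0.53 and 0.11 log2. Hif1a differed by 1.27, 0.42 and 0.76 log2, and Gapdh by 0.72, 0.33 and 0.14 log2. When the subset difference itself was compared between PNX-dnFGFR and SHAM mice, no member passed (0.126% of all genes passed, limma). At an unadjusted p below 0.05 there were 12 members, 11 of them with a more positive difference in PNX-dnFGFR mice, against 12.7% of all genes. The members' median of this difference of differences was 0.49 log2, against 0.01 log2 over all genes, and the smallest p was that of Slc16a3 (1.14 ± 0.28 log2, SE, adjusted p = 0.16, limma), followed by Pfkl (1.08 log2, adjusted p = 0.182, limma) and Pkm (0.88 log2, adjusted p = 0.199, limma).

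The counts within 1 condition rest on few arrays. Without bright SHAM replicate 1 or 2 the SHAM count of 10 became 4 and 5, without dim SHAM replicate 1 or 2 it became 5 and 4, and without bright PNX-dnFGFR replicate 1 or 2 it became 6. The PNX count of 8 became 4 without bright PNX replicate 1 and 4 without dim PNX replicate 2. The PNX-dnFGFR count of 18 lay between 12 and 19 with 1 array left out in turn. Eno2, Pfkp and Pfkfb3 passed in every condition whichever array was left out.

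Members that replace each other at the same step were compared within each array, as the log2 signal of one minus that of the other; 8 of the 10 pairs could be tested and 5 differed between bright and dim cells (limma, adjusted over the whole table). The difference between probe sets within an array shows unequal change, not which isozyme is the more abundant. In bright cells Pfkp minus Pfkl was above its dim level by 1.17 ± 0.16 log2 (SE, n = 6 per subset, adjusted p = 0.000343, limma). Its ranges overlapped, with -0.14 to 1.45 log2 on bright and -0.71 to 0.49 log2 on dim arrays. Ldha minus Ldhb was lower in bright cells, with 0.35 to 1.83 log2 on bright and 2.40 to 4.12 log2 on dim arrays and a difference of -2.12 ± 0.32 log2 (SE, n = 6 per subset, adjusted p = 0.000567, limma). Pfkfb3 minus Pfkfb4 was lower in bright cells by -1.84 ± 0.13 log2 (SE, n = 6 per subset, adjusted p = 5.47e-06, limma), with 0.15 to 1.03 log2 on bright and 2.09 to 2.77 log2 on dim arrays.

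On average, the phosphofructokinase balance was thus further towards the platelet type, and the lactate dehydrogenase balance further towards the B subunit, in bright cells than in dim cells. Slc2a1 minus Slc2a3 (-0.94 log2, adjusted p = 0.0367, limma) and Pdk1 minus Pdk2 (0.77 log2, adjusted p = 0.0418, limma) passed narrowly. Both missed the threshold under a variance trend, and the count of 5 became 3 without bright PNX-dnFGFR replicate 1, bright SHAM replicate 1, dim PNX replicate 1 or dim SHAM replicate 2.

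In bright cells, PNX-dnFGFR mice had more RNA than SHAM mice for the inducible hexokinase, the liver-type phosphofructokinase, the enolase Eno2, the lactate exporter MCT4 and the stress gene Ddit4, and less for Adm. The 5 higher and 1 lower member stand beside 5.20% of all genes that passed this test (2.60% higher and 2.60% lower). Hk2 was above the filter on 3 arrays, both bright PNX-dnFGFR arrays among them, so its call follows in part from the filter. The members' median difference was 0.51 log2, against 0.02 log2 over all genes. At an unadjusted p below 0.05 there were 21 members, 15 higher and 6 lower, against 22.8% of all genes. The arrays did not overlap for 19 higher and 7 lower members, against 59.6% of all genes. The design put surgery and the dominant-negative receptor together in this comparison, so they cannot be told apart in it.

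Hk2 read 5.98 and 5.64 log2 on the bright PNX-dnFGFR arrays, against 4.89 and 4.30 log2 on the bright SHAM arrays. Both SHAM values were below the filter, and the difference of 1.21 ± 0.23 log2 (SE, n = 2 per group, adjusted p = 0.0258, limma) was 0.71 log2 when held at it. Pfkl read 9.58 and 9.04 log2 in PNX-dnFGFR, against 8.31 and 8.31 log2 in SHAM mice. Both PNX-dnFGFR arrays were above both SHAM arrays, by 1.0 ± 0.20 log2 on average (SE, n = 2 per group, adjusted p = 0.0279, limma). A second Pfkl probe set gave 0.96 log2 and another, below the filter, gave -0.31 log2.

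Slc16a3 read 6.64 and 6.43 log2 in PNX-dnFGFR, against 5.65 and 5.49 log2 in SHAM mice, a difference of 0.97 ± 0.20 log2 (SE, n = 2 per group, adjusted p = 0.0313, limma). Ddit4 read 6.96 and 6.15 log2 in PNX-dnFGFR, against 5.13 and 4.90 log2 in SHAM mice. Both genes were higher on both PNX-dnFGFR arrays, Ddit4 by 1.54 ± 0.32 log2 (SE, n = 2 per group, adjusted p = 0.0314, limma). Eno2 read 7.66 and 7.50 log2 in PNX-dnFGFR, against 6.48 and 6.31 log2 in SHAM mice, a difference of 1.19 ± 0.29 log2 (SE, n = 2 per group, adjusted p = 0.047, limma). This Eno2 call was lost with no filter, and on leaving out any array other than bright PNX replicate 1 or 2. Adm read 6.36 and 6.27 log2 in PNX-dnFGFR, against 7.31 and 7.07 log2 in SHAM mice, and fell by 0.87 ± 0.17 log2 (SE, n = 2 per group, adjusted p = 0.0279, limma). As the mean over both subsets Adm was the sole member that passed (-0.64 ± 0.12 log2, SE, adjusted p = 0.0434, limma), where 0.984% of all genes were higher and 1.01% lower. That call did not hold on leaving out any array other than bright PNX replicate 1 or 2 or dim SHAM replicate 1, with adjusted p-values up to 0.141 (limma).

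Several members came close without passing. Egln3 read 8.67 and 8.81 log2 in bright PNX-dnFGFR cells, against 5.72 and 3.79 log2 in bright SHAM cells, and its 3.98 ± 1.06 log2 (SE, n = 2 per group, adjusted p = 0.0613, limma) did not pass. Both PNX-dnFGFR arrays were above both SHAM arrays, and the SHAM arrays were far apart. Egln3 did pass with the stricter filter, the mean of probe sets, values held at the filter or only the groups compared. With no filter, quantile normalization again, median centring, a variance trend or a replicate block it did not. Pdk2 was at -0.62 log2 (adjusted p = 0.052, limma), Pkm at 0.68 log2 (adjusted p = 0.0569, limma), Ndrg1 at -0.80 log2 (adjusted p = 0.0618, limma) and Tpi1 at 0.89 log2 (adjusted p = 0.0691, limma). Pkm and Pdk2 did pass with the stricter filter, the mean of probe sets, a variance trend or values held at the filter. Ndrg1 and Tpi1 passed under fewer settings. Hif1a, at 0.89 log2 (adjusted p = 0.104, limma), and Vegfa, at -0.69 log2 (adjusted p = 0.105, limma), did not pass either, nor did Ldha at 0.36 log2 (adjusted p = 0.188, limma) or Gapdh at 0.31 log2 (adjusted p = 0.253, limma). Of these, Vegfa passed with the mean of probe sets.

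The balance of isozymes was tested in the same comparison. Pfkp minus Pfkl was lower in PNX-dnFGFR than in SHAM mice by -1.22 log2 (adjusted p = 0.0432, limma) and Pfkm minus Pfkl by -0.95 log2 (adjusted p = 0.0381, limma). Both pairs rest on Pfkl, whose own call missed the threshold with only the groups compared (adjusted p = 0.0615, limma), and these pairs were not recomputed with an array left out. No value is given for Hk2 minus Hk1, since both bright SHAM values of Hk2 were below the filter.

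**Figure D3:**
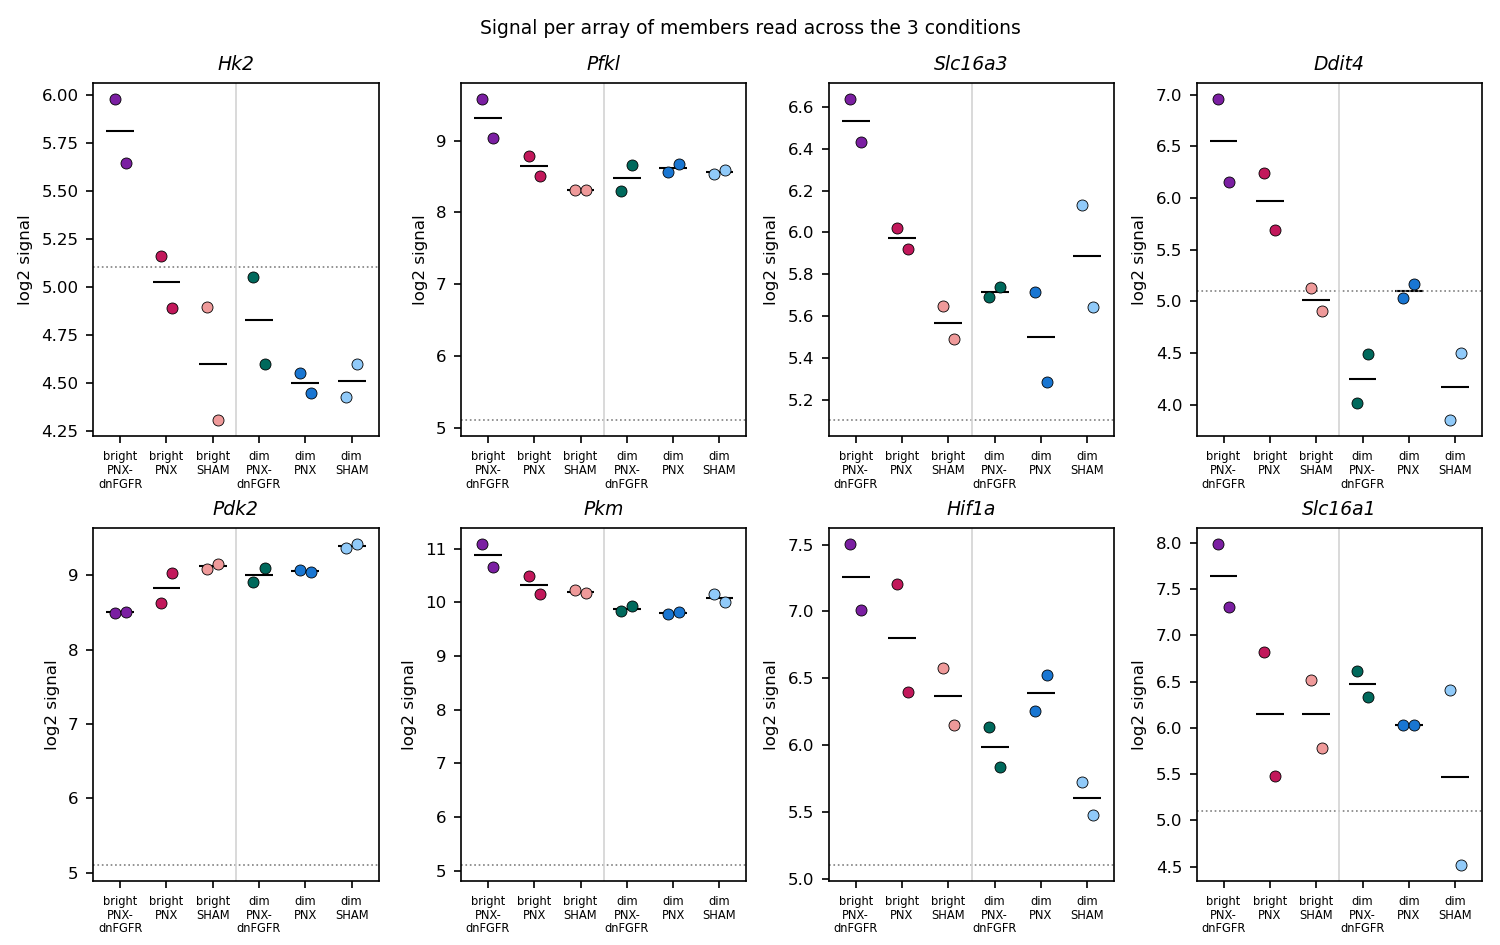
Log2 signal on each of the 12 arrays (y axis) for 8 members by subset and condition. Points are arrays, bars are group means and the dotted line is the filter at 5.10. Hk2, Pfkl, Slc16a3 and Ddit4 have their highest group mean in bright PNX-dnFGFR cells, where Hk2 reads 5.98 and 5.64 and Slc16a3 reads 6.64 and 6.43.

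The call of these 6 members depended on single arrays. Leaving out bright PNX-dnFGFR replicate 1 or bright SHAM replicate 2 left 0 calls, leaving out bright PNX-dnFGFR replicate 2 or bright SHAM replicate 1 left 1, and leaving out bright PNX replicate 1 or 2, which only estimate the spread here, gave 11. With only the groups compared there were 4 calls, with Ddit4, Hk2 and Pfkl missing the threshold, and Egln3 was gained. With the stricter filter, under which Ddit4, Hk2 and Slc16a3 were no longer tested, 3 of the 6 calls were kept among 7.

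Proliferation markers moved with this comparison: 10 of 18 tested cell cycle genes were higher in bright PNX-dnFGFR than in bright SHAM cells and none lower, with a median of 1.69 log2. Their summed linear signal was 3816 to 5322 on bright PNX-dnFGFR, 2451 to 2678 on bright PNX and 1352 to 1728 on bright SHAM arrays. On dim arrays it was 974 to 1532 in PNX-dnFGFR, 1142 to 1438 in PNX and 928 to 1692 in SHAM mice. No mesothelial marker passed here (sums of 2795 to 3958 in bright PNX-dnFGFR and 2126 to 2638 in bright SHAM cells), and erythrocyte sums were 1243 to 1292 in bright PNX-dnFGFR and 2260 to 3366 in bright SHAM cells. Of 10 endothelial markers none passed, 7 had an unadjusted p below 0.05, and the median was -0.76 log2, with sums of 1906 to 2076 in bright PNX-dnFGFR and 2405 to 2409 in bright SHAM cells. Of 5 neutrophil markers 1 was higher, with sums of 543 to 627 in bright PNX-dnFGFR and 197 to 537 in bright SHAM cells. The part of proliferation or of other cell types in the members' changes was not tested.

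In dim cells no member passed between PNX-dnFGFR and SHAM mice (0.0181% of all genes passed, limma). At an unadjusted p below 0.05 there were 4 members, all lower, against 9.52% of all genes, and the members' median was -0.17 log2. Pfkp was at -0.75 log2 (adjusted p = 0.343, limma), Bnip3 at -0.56 log2 (adjusted p = 0.442, limma) and Pdk2 at -0.39 log2 (adjusted p = 0.453, limma). In dim cells Hk2, Pfkl, Slc16a3, Ddit4 and Eno2 were at 0.31, -0.08, -0.17, 0.08 and 0.05 log2. The difference between the subsets in these effects is the difference of differences given above, and no member passed in it.

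**Figure D4:**
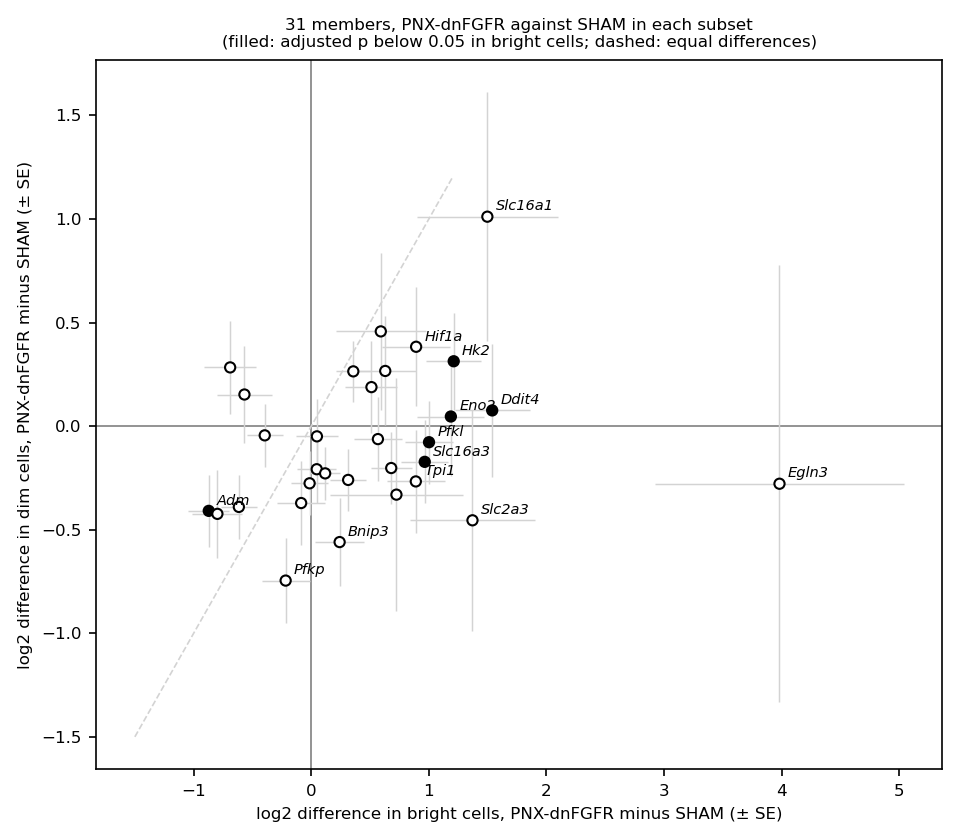
Log2 difference between PNX-dnFGFR and SHAM mice (PNX-dnFGFR minus SHAM) in bright cells (x axis) and in dim cells (y axis) for the 31 tested members. Points are limma estimates with standard errors as lines, filled points had an adjusted p below 0.05 in bright cells, and the dashed line marks equal differences. The members' median is 0.51 in bright and -0.17 in dim cells.

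What the dominant-negative receptor added to pneumonectomy was asked by setting PNX-dnFGFR against PNX. No member passed in bright cells, in dim cells or as the mean of both (0.00903%, 0 and 0% of all genes, limma). At an unadjusted p below 0.05 there were 8 members in bright cells, 2 in dim cells and 6 in the mean, against 12.6%, 7.79% and 12.5% of all genes. In bright cells the smallest p-values were those of Hk2 (0.79 log2, adjusted p = 0.202, limma), Pfkl (0.66 log2, adjusted p = 0.206, limma) and Pkm (0.55 log2, adjusted p = 0.225, limma). In the mean they were those of Hk2 (0.56 log2, adjusted p = 0.247, limma), Slc16a3 (0.39 log2) and Pkm (0.32 log2). In dim cells they were those of Ddit4 (-0.85 log2, adjusted p = 0.568, limma), Hk1 (-0.40 log2) and Bnip3 (-0.45 log2). With values held at the filter the Ddit4 difference was -0.03 log2, and that of Hk1 was -0.14 log2 when its probe sets were averaged.

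The response to pneumonectomy itself was asked by setting PNX against SHAM, and again no member passed in the mean over subsets, in bright or in dim cells (0.144%, 0.00903% and 0.0452% of all genes passed, limma). At an unadjusted p below 0.05 there were 7, 2 and 5 members, against 16.1%, 8.24% and 12.2% of all genes. Ddit4 had the smallest p in the mean, at 0.94 ± 0.23 log2 (SE, 4 arrays per condition, adjusted p = 0.113, limma), followed by Pfkp at -0.47 log2 (adjusted p = 0.168, limma) and Adm at -0.38 log2 (adjusted p = 0.19, limma). In bright cells Ddit4 was at 0.95 log2 (adjusted p = 0.518, limma), Vegfa at -0.55 log2 and Eno2 at 0.60 log2, and in dim cells Pfkp at -0.67 log2 (adjusted p = 0.259, limma), Ddit4 at 0.92 log2 and Hif1a at 0.79 log2. With values held at the filter the Ddit4 difference was 0.44 log2 in the mean and 0.03 log2 in dim cells. The 3 comparisons of conditions share arrays, so their values are not independent of each other.

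The effects of PNX and of the dominant-negative receptor were also compared between bright and dim cells, and no member passed in either (0% of all genes, limma). At an unadjusted p below 0.05 there were 2 members for PNX and 5 for the receptor, against 4.47% and 8.21% of all genes. For PNX the smallest p-values were those of Slc16a3 (0.79 log2, adjusted p = 0.998, limma), Eno2 (0.93 log2) and Slc2a3 (1.65 log2), and for the receptor those of Ddit4 (1.44 log2, adjusted p = 0.487, limma), Pfkl (0.80 log2) and Egln3 (3.87 ± 1.49 log2, SE, adjusted p = 0.567, limma).

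The bright PNX arrays differed from each other in these genes. Replicates of this group were more than 1 log2 apart for 6 of the 31 members, against 3.95% of all genes. Egln3 read 8.22 and 4.16 log2 there, Slc16a1 6.82 and 5.47 log2, Slc2a3 6.84 and 5.15 log2, Pdk1 6.22 and 4.79 log2, Ldhb 10.03 and 8.95 log2 and Eno2 7.50 and 6.48 log2. All 6 were higher on replicate 1. In bright SHAM cells 2 members (Slc2a3 and Egln3) were as far apart, and in bright PNX-dnFGFR cells none, against 2.73% and 1.71% of all genes. Egln3 remained higher in bright than in dim cells whichever array was left out, by 2.65 to 4.0 log2 with adjusted p-values up to 0.0059 (limma).

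Genes of neighbouring pathways were read in the comparison of bright with dim cells. In the pentose phosphate and glycogen branches 6 of 12 tested genes were higher and 1 lower, with a median of 0.32 log2. Pygb, a glycogen phosphorylase, was higher by 1.14 ± 0.09 log2 (adjusted p = 6.41e-06, limma), Pgm1, which links glycogen to glycolysis, by 1.15 ± 0.22 log2 (adjusted p = 0.0022, limma) and Ugp2, which makes the sugar donor for glycogen, by 0.45 ± 0.09 log2 (adjusted p = 0.00223, limma). Pgm2 was lower, at -0.43 ± 0.09 log2 (adjusted p = 0.00304, limma).

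In pyruvate oxidation none of 9 was higher and 3 were lower, with a median of -0.26 log2. These were Pdp1 and Pdp2, phosphatases that activate pyruvate dehydrogenase, at -1.03 and -0.57 log2 (adjusted p = 0.000199 and 0.001, limma), and Pcx, pyruvate carboxylase, at -0.71 log2 (adjusted p = 0.000629, limma). The subunits of the pyruvate dehydrogenase complex itself did not pass. Of 5 tested tissue-restricted isozymes, none was higher and Hk3 and Eno3 were lower, by -0.70 and -0.58 log2.

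Among 7 tested genes of oxygen sensing and HIF subunits none was higher and 3 were lower. Epas1, the HIF-2 subunit prominent in endothelial and lung cells, was at 8.63 log2 or less on every bright and 9.45 log2 or more on every dim array, a difference of -1.88 ± 0.12 log2 (adjusted p = 2.68e-06, limma). Cited2, which competes with HIF for its coactivator, was at 8.28 to 9.02 log2 on bright and 10.21 to 10.85 log2 on dim arrays, a difference of -1.80 ± 0.09 log2 (adjusted p = 6.81e-07, limma). Hif3a was lower by -0.61 log2 (adjusted p = 0.000867, limma). The sign for Epas1 was thus opposite to that for Hif1a.

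In a wider list of hypoxia-induced genes, 5 of 22 tested were higher in bright cells and 6 were lower, with a median of 0.14 log2, a share near the 47.8% of all genes that passed. Fam162a, a mitochondrial HIF target, was higher by 0.87 log2 (adjusted p = 0.000433, limma), and Ppp1r3c, a glycogen-targeting subunit, Lox, which crosslinks collagen, and Rora, a nuclear receptor, were lower by -1.17, -0.60 and -0.42 log2. Between PNX-dnFGFR and SHAM mice in bright cells 3 were higher and 1 lower. Lox rose by 1.31 ± 0.17 log2 (adjusted p = 0.0103, limma), Fam162a by 1.19 ± 0.22 log2 (adjusted p = 0.0239, limma) and Plod2, a collagen lysyl hydroxylase, by 1.09 ± 0.24 log2 (adjusted p = 0.0379, limma), while Rora was lower by -0.60 log2 (adjusted p = 0.0413, limma). None of the genes of the side branches, pyruvate oxidation or oxygen sensing passed in that comparison.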

How the data were processed

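Gene expression was measured on 12 Affymetrix mouse arrays of RNA amplified over 25 cycles from 2000 sorted cells per sample. The deposited values are log2 signals made with RMA, per the submitters' processing notes; their version number is not given in the sources used here. Signals ranged from 1.50 to 13.05 and were used as they are. RMA fits probe effects and quantile-normalizes all arrays together, so a change shared by most genes would not show, and signal strength ranked markers only to choose which to name, not to compare levels between genes.

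Of 45141 probe sets, 104 controls were set aside, and 28898 named 1 gene, 551 several and 15588 none. Symbols of 28689 annotated probe sets were updated from a RefSeq gene table. Each of 17097 genes was read from its probe set of highest mean (7180 genes had more than 1). A gene was tested where 2 or more arrays exceeded log2 5.10, the median signal, which left 11073 and set aside 6024. Of the tested members, 24 were above the filter on all arrays.

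The 6 group means were estimated for each gene in a single limma fit (version 3.58.1, under R 4.3.3; degrees of freedom were 6 residual and 3.31 prior), with limma's moderated test and Benjamini-Hochberg adjustment over all genes of each of 16 contrasts, and a threshold of 0.05. All adjusted p-values are from limma. Arrays limit the precision by their number: the residual standard deviation had a median of 0.199 log2. The fit was tested on simulated data.

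The members and lists were chosen with earlier results of these data known. Named members are the 14 with the smallest adjusted p in bright against dim cells, every member past the threshold between conditions, or the 3 with the smallest p where none passed, and Gapdh, Hif1a, Ldha and Vegfa. From other lists up to 4 genes were named, and for other cell types their highest markers; other members with a value are given as the rest of the list. Promoters came from RefSeq (GRCm38.p6) and were searched on both strands. Alternative settings were no filter, a filter at log2 6.76, a repeated quantile normalization, median centring, averaging the probe sets of a gene, a variance trend, holding values at the filter, fitting only the groups compared, leaving out each array in turn, and replicate blocks. Replicate numbers were not used to pair samples in the main fit. Across genes, the correlation of deviations between bright and dim arrays of a number was 0.13, 0.0034 and 0.0055 in the PNX-dnFGFR, PNX and SHAM groups. Over all 15 pairs of groups it ran from -0.19 to 0.35. It was 0.35 for bright PNX-dnFGFR with bright SHAM and 0.29 for bright PNX with bright SHAM. With 2 arrays per group, these values cannot show whether bright and dim arrays share mice.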

Additional observations from a re-analysis of the deposited data

How the results depend on the processing

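No named member changed direction under an alternative: of the values recomputed for named members, 1328 kept direction and side of the threshold, 48 kept direction but no longer passed, and 2 newly passed. Nearly all of the 48 belonged to the calls of PNX-dnFGFR against SHAM. Between bright and dim cells within a condition, only Eno2, Pfkfb3, Vegfa and Pfkp were recomputed in this way. The 48 therefore leave out the lost calls, given above, of Ldhb and Adm within a condition and of Slc16a3 between bright and dim cells. The 1328 include values that passed neither before nor after. The count of 20 members between bright and dim cells was 18 to 22 under the alternatives and 19 to 21 with 1 array left out. In PNX-dnFGFR mice the 18 became 15 to 19, and 12 to 19 with 1 array left out. With only the groups compared, the counts in PNX and SHAM mice became 5 and 5, and with 1 array left out 4 to 9 and 4 to 11. For PNX-dnFGFR against SHAM in bright cells the 6 became 4 with only the groups compared, 5 with no filter, 7 with the stricter filter (3 of them shared), 10 with the mean of probe sets, 10 with a variance trend, and 0 to 11 with 1 array left out. As the mean over subsets the 1 became 0 with no filter, 3 with the stricter filter, 2 with quantile normalization again, median centring, values held at the filter or only the groups compared, 3 with the mean of probe sets and 4 with a variance trend, and it also moved with 1 array left out. The 2 with only the groups compared were Eno2 and Pdk2, and the Adm call was lost there. Counts of 0 became 0 to 1 for PNX-dnFGFR against PNX as the mean, 0 to 3 in bright cells, 0 to 1 for the receptor's effect between subsets and 0 to 1 for the subset difference between PNX-dnFGFR and SHAM mice, each on leaving out bright PNX replicate 1 and, for the last, also replicate 2. The 5 isozyme pairs became 3 with a variance trend and 3 to 5 with 1 array left out. The replicate block, as a random effect, gave 20 between bright and dim cells and 6 and 1 for PNX-dnFGFR against SHAM in bright cells and as the mean; as a covariate it gave 21, 8 and 3. The cause of these moves was not tested.

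Counts over all genes moved too. With 1 array left out, the counts between bright and dim cells within a condition were 2429 to 3936 in PNX-dnFGFR (3812 with all arrays), 1110 to 2042 in PNX (2042) and 1229 to 2267 in SHAM mice (2107), so the shares of all genes within a condition move too. Likewise the 576 genes of PNX-dnFGFR against SHAM in bright cells were 5 to 910, and the 221 of the mean 7 to 495. The 16 and 5 of PNX against SHAM, as the mean and in dim cells, were 1 to 27 and 1 to 13, and 1 to 51 and 0 to 15 under the other settings. The 1 of PNX-dnFGFR against PNX in bright cells was 0 to 429, and the 14 of the subset difference 0 to 95. Scaling moved the median of all genes by less than the 0.1 log2 that would need a correction. With 2 arrays per group, their number limits the precision, and values under the filter carry little signal over background.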
